A study of Mus musculus with 21 samples.

Results

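The genes described are Cdkn1a, Gdf15 and Mdm2, which respond to p53 and to cell stress. They were measured in mouse hearts with or without floxed copies of Lmna, the gene for lamin A/C. The genes were found by position: 3′ UTR intervals of the deposited table that lie inside a stated mm39 window on the gene's strand were taken. Of overlapping intervals the one with the most reads was kept. The windows held 13 intervals, of which 7 remained, out of 121259 kept in the whole table. Cdkn1a has 2 of them, Gdf15 has 1 and Mdm2 has 4. One interval carried nearly all reads of each gene, and the gene name alone refers to that interval here.

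RNA came from the left-ventricular free wall of 21 adult mice, 1 library per mouse. Each mouse carried 1 copy of Myh6MCM, a Cre recombinase that is switched on by tamoxifen and expressed from the Myh6 promoter of cardiomyocytes, and each received tamoxifen on 4 days at 6 to 8 weeks of age. 4-thiouracil was injected 2 weeks later, and hearts were taken after 6 hours. The Lmna F/F Uprt group, with 2 floxed copies of Lmna and 1 copy of a transgene for uracil phosphoribosyltransferase, had 6 mice (4 females, 2 males), and its control, Lmna +/+ Uprt, had 8 mice (4 females, 4 males). The Lmna F/F no Uprt group lacked that transgene and had 4 mice (2 females, 2 males), and its control, Lmna +/+ no Uprt, had 3 mice, all male. Cre and tamoxifen were thus shared by all 4 groups, and the labels do not say which promoter drives Uprt. Lmna itself and the markers of heart cell types were not analysed here.

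Uprt lets cells build 4-thiouracil into newly made RNA, and after alkylation with iodoacetamide the analogue is read as C in place of T. A read with at least 1 such change is called a T>C read, and the T>C share is the percentage of an interval's reads that carry one. Libraries held 25975911 to 51007428 reads on kept intervals, of which 1125790 to 2421214 were T>C reads. The sex labels were checked on the Y chromosome, whose intervals held 4638 to 8676 reads in the 11 males and 269 to 1247 in the 10 females. In whole tissue, fewer cells of a type and less RNA per cell cannot be told apart.

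p53 is a transcription factor that is stabilised by DNA damage and other stress, and it switches on genes that halt the cell cycle. Cdkn1a encodes p21, an inhibitor of cyclin-dependent kinases and a textbook p53 target. Mdm2 encodes the ubiquitin ligase that marks p53 for degradation, and because p53 also switches on Mdm2, the pair forms a negative feedback loop. Gdf15 encodes a secreted cytokine of the TGF-beta superfamily that is made by stressed cells, under p53 and under ATF4 of the integrated stress response, and that acts on appetite through the receptor GFRAL.

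The promoters are printed because these genes were grouped as p53 and stress targets. RefSeq lists 2 starts for Cdkn1a, 2 for Gdf15 and 1 for Mdm2, and each window runs from 250 bases before the start to 50 bases after it (GRCm38.p6, a build other than that of the reads). Capitals mark matches to the p53 half-site, a run of 10 letters searched on both strands, and to the full site, a pair of half-sites without a spacer and with up to 1 mismatch. The upstream Cdkn1a window holds the only full site of the 5 windows, 51 bases before the gene start, and its first part is also 1 of the 2 half-sites there. The 3 windows shown are chr17:29090729-29091028 on the plus strand for Cdkn1a, chr8:70632407-70632706 on the minus strand for Gdf15 and chr10:117710709-117711008 on the minus strand for Mdm2.

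Cdkn1a, upstream start: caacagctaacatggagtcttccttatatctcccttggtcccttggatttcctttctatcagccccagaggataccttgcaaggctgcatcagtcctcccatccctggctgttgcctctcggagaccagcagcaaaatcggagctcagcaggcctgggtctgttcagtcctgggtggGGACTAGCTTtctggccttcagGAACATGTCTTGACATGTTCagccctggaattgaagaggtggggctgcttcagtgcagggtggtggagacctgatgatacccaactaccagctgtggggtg
Gdf15, upstream start: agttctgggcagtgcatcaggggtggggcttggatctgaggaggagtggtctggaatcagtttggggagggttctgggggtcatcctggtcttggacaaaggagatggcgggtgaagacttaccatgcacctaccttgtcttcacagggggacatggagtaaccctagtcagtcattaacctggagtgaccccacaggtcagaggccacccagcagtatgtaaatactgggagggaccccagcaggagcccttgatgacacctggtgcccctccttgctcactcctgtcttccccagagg
Mdm2: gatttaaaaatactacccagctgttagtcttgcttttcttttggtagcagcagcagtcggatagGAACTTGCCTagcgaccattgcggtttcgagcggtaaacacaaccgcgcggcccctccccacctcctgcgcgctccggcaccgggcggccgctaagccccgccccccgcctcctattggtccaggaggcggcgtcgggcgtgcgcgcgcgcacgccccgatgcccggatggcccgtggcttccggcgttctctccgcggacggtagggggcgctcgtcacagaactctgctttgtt

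The Cdkn1a full site reads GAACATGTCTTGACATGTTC. Any full site with up to 1 mismatch was present in 29 of the 32817 promoter windows of the same length (0.0884%), and a half-site in 8.36% of them. The Mdm2 window held 1 half-site, GAACTTGCCT, which starts 186 bases before the gene start. No half-site was found in either Gdf15 window or in the other Cdkn1a window. TGATGNAA, which ATF4 with C/EBP factors can bind, was in 3.97% of all windows, and the AP-1 motif TGANTCA was in 7.81%. Neither had a match in the 5 windows of these genes. A match is a string of letters and not a measured site.

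Cdkn1a was read on chr17:29318368-29319701 (mm39, plus strand, ENSMUST00000233296.2), a stretch of 1334 bases with 352 T positions. It held 99315 reads over the 21 libraries. Its other interval, chr17:29309950-29310907, held 38. Mdm2 was read on chr10:117524800-117526690 (minus strand, ENSMUST00000155285.8), which has 1891 bases with 525 T positions, and held 34606 reads. The remaining Mdm2 intervals, at chr10:117527050-117527127, chr10:117528487-117528642 and chr10:117530810-117530883, held 158, 125 and 4 reads. Gdf15 was read on chr8:71082043-71082192 (minus strand, ENSMUST00000003808.8), which has only 150 bases with 57 T positions, and held 2196 reads. Reads that map to several places made up at most 0.223% of any interval in the windows.

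Levels are given as CPM, counts scaled to a common library size corrected by TMM, an edgeR factor that evens out composition. QuantSeq reads start near the 3′ end of a transcript, so the CPM was not divided by length, and levels are compared between mice and not between genes.

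Gdf15, the secreted stress cytokine, was the gene with the clearest rise in Lmna F/F mice. With Uprt, it had 4.15, 6.35, 3.59, 3.91, 1.99 and 2.91 CPM in the 6 Lmna F/F mice. The 8 Lmna +/+ mice with Uprt lay between 0.365 and 1.34 CPM, with a median of 0.611. The lowest Lmna F/F mouse was above the highest Lmna +/+ mouse. Groups separated in this direction at 1.42% of the 31327 intervals tested. The means were 3.82 ± 1.47 CPM in Lmna F/F (SD, n = 6) and 0.715 ± 0.35 CPM in Lmna +/+ (SD, n = 8). In edgeR's quasi-likelihood fit of all 21 libraries with sex as a term, the log2 fold change came to 2.42 ± 0.36 (SE, adjusted p = 0.000159). That threshold, an adjusted p under 0.05 by Benjamini-Hochberg over all intervals, called 2.45% of intervals, with 2.19% higher in Lmna F/F.

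Without Uprt, in other animals, the Gdf15 level again differed by genotype. It had 11.01, 7.26, 1.61 and 3.42 CPM in the Lmna F/F mice, against 0.763, 0.63 and 0.3 CPM in the Lmna +/+ mice. The groups did not overlap, as at 8.08% of intervals in this direction, but the Lmna F/F mice were far apart from each other. On the log2 scale the difference was 3.39 ± 0.57 (SE, adjusted p = 0.000698 by edgeR, where 5.17% of intervals were called). It was 3.68 with an adjusted p of 0.0780 when only these 7 libraries entered the fit, and 2.15 with an adjusted p of 0.0648 without the Lmna F/F mice at 11.01 and 7.26 CPM. The Lmna effect with Uprt minus that without was -0.97 ± 0.63 on the log2 scale (adjusted p = 0.800 by edgeR), in a test that called 0 intervals, with 2204 at an unadjusted p under 0.05. That difference was -0.33 without the Lmna F/F mouse at 11.01 CPM, and its sign turned, to 0.24, without both of those mice.

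Within each sex, the Gdf15 level with Uprt also differed by genotype, in comparisons added after the values were seen. The females averaged 4.19 ± 1.50 CPM in Lmna F/F and 0.714 ± 0.316 CPM in Lmna +/+ (SD, n = 4 each), or 2.53 ± 0.40 on the log2 scale (SE, adjusted p = 0.000939 by edgeR, with 0.997% of 31697 intervals called). The 2 Lmna F/F males had 4.15 and 1.99 CPM, and the 4 Lmna +/+ males lay between 0.365 and 1.34 CPM. In this sex the log2 fold change was 2.09 ± 0.45 (SE, adjusted p = 0.0184 by edgeR, with 1.28% called). It was lost without the Lmna F/F male at 4.15 CPM, at 1.49, or without Lmna +/+ Uprt replicate 4 or 6, at 1.86 and 2.00. Females minus males gave 0.44 ± 0.61 for the Lmna effect (SE, adjusted p = 1.000 by edgeR, with 0.00315% called).

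These levels rest on few reads. Gdf15 had 141, 282, 151, 181, 70 and 133 reads in the Lmna F/F Uprt libraries, against 13 to 43 (median 20) in the Lmna +/+ Uprt libraries. Without Uprt it had 464, 287, 66 and 163 reads in Lmna F/F and 28, 25 and 14 in Lmna +/+. The interval passed the low-count filter of all reads.

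**Figure D1:**
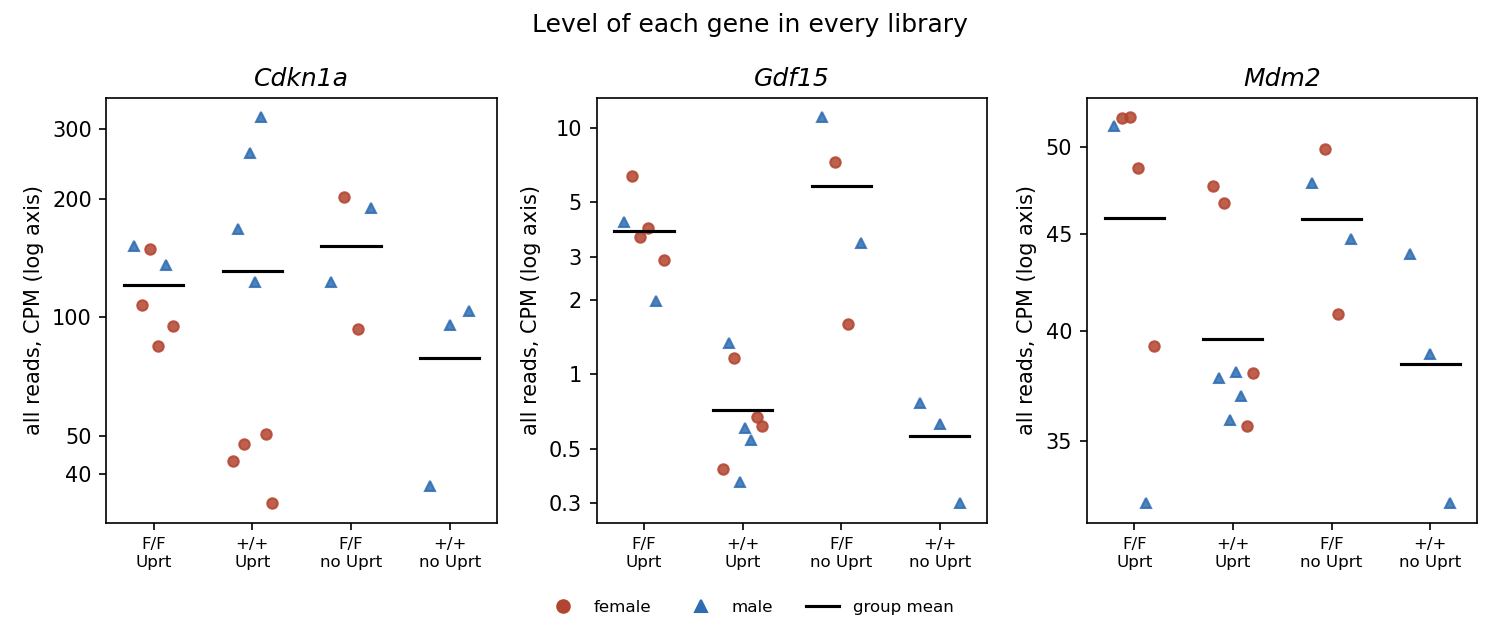
Level of each gene in every library, as CPM on a log axis that differs between panels, in the 4 groups, with circles for females, triangles for males and a line at the group mean. Gdf15 separates Lmna F/F from +/+ with and without Uprt, Cdkn1a splits by sex in Lmna +/+ Uprt, and Mdm2 stays between 32.5 and 51.8 CPM in all 21 mice.

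Cdkn1a, the cell cycle inhibitor, was not called between Lmna genotypes with Uprt. The 6 Lmna F/F mice had 151, 107, 149, 84.5, 136 and 95.1 CPM. The 8 Lmna +/+ mice ranged from 33.7 to 322 CPM, with a median of 86.8. The Lmna +/+ mice thus spread on both sides of the Lmna F/F mice. The means were 121 ± 28.8 CPM in Lmna F/F (SD, n = 6) and 131 ± 110 CPM in Lmna +/+ (SD, n = 8), and the log2 fold change with sex as a term was 0.44 ± 0.33 (SE, adjusted p = 0.617 by edgeR). The sign depended on the sex term, with -0.12 without it.

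The wide spread in Lmna +/+ followed sex, a split that was looked at after the values were seen. The 4 Lmna +/+ Uprt males had 167, 261, 123 and 322 CPM, and the 4 females had 43.3, 47.6, 50.6 and 33.7 CPM. Every male was above every female, as at 2.62% of intervals in this direction. Males over females gave 2.31 ± 0.23 on the log2 scale (SE, adjusted p = 3.62e-06 by edgeR), in a fit where 0.849% of 31697 intervals were called in either direction and 0.524% were higher in males.

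In Lmna F/F Uprt hearts the sexes were closer. The 2 males had 151 and 136 CPM, and the 4 females had 107, 149, 84.5 and 95.1 CPM. These values overlapped, and males over females gave 0.39 ± 0.27 on the log2 scale (SE, adjusted p = 1.000 by edgeR, with 0.082% of intervals called).

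Set within each sex, Cdkn1a differed between Lmna genotypes in females. All 4 Lmna F/F females were above the 4 Lmna +/+ females, as at 4.56% of intervals in this direction. Their means were 109 ± 28.4 CPM in Lmna F/F and 43.8 ± 7.37 CPM in Lmna +/+ (SD, n = 4 each), or 1.30 ± 0.22 on the log2 scale (SE, adjusted p = 0.00252 by edgeR, with 0.997% of intervals called). In males the 2 Lmna F/F mice averaged 144 ± 10.9 CPM and the 4 Lmna +/+ mice 218 ± 89.8 CPM (SD), or -0.62 ± 0.28 on the log2 scale (SE, adjusted p = 0.426 by edgeR, with 1.28% of intervals called). With no low-count filter it was called at -0.61, with a smaller SE of 0.17 (adjusted p = 0.0246 by edgeR).

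The difference between the sexes in the Lmna effect was tested itself. Females minus males gave 1.92 ± 0.36 on the log2 scale (SE), with an unadjusted p of 2.80e-05 and an edgeR adjusted p of 0.222 over 31697 intervals, of which 0.00315% were called. DESeq2 gave the same quantity an adjusted p of 0.000467. In the edgeR fits that left out 1 mouse, it was called only without Lmna +/+ Uprt replicate 5, the male at 123 CPM (adjusted p = 0.00628). With no low-count filter edgeR called it at the same size, 1.92, with a smaller SE of 0.22 (adjusted p = 4.81e-15). That call came with the smaller SE and not with a larger difference.

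**Figure D2:**
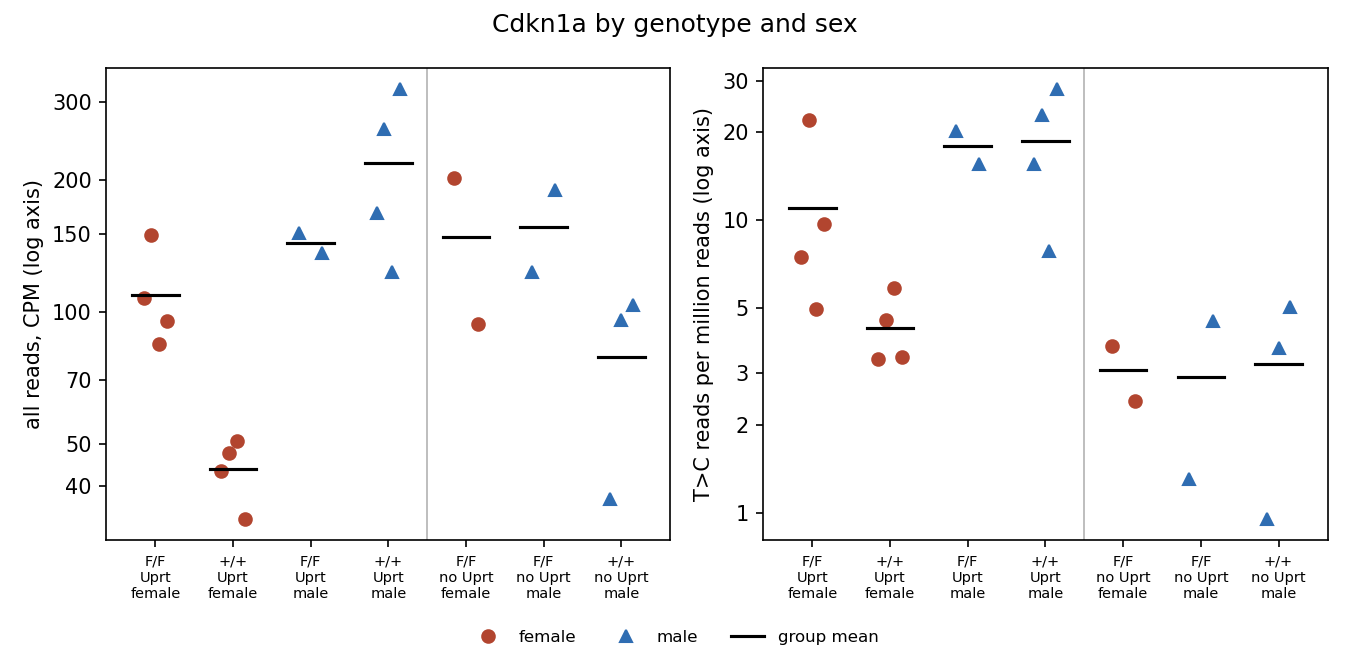
Cdkn1a by genotype, Uprt and sex, with all reads on the left and T>C reads on the right, both as CPM on log axes, and a line at each mean. Lmna +/+ Uprt females lie lowest among the mice with Uprt, at 33.7 to 50.6 CPM of all reads, and Lmna +/+ Uprt males reach 322 CPM.

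Without Uprt the Cdkn1a comparison had no Lmna +/+ female, so the fitted sex term came from the other groups. The Lmna F/F mice had 123, 202, 93.5 and 189 CPM, against 37.5, 95.9 and 104 CPM in the Lmna +/+ mice. The groups overlapped in 1 mouse, the Lmna F/F female at 93.5 CPM. The fitted log2 fold change was 1.66 ± 0.49 (SE, adjusted p = 0.0434 by edgeR), close to the threshold. It was 0.94 without the sex term and 0.98 in males alone, and neither was called. It was also lost without Lmna F/F no Uprt replicate 2 and without any 1 of the Lmna +/+ no Uprt mice, with log2 fold changes of 1.25 to 1.91.

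The same Cdkn1a interval was compared between mice with and without Uprt among Lmna +/+ mice. The 4 Lmna +/+ Uprt males, at 123 to 322 CPM, all lay above the 3 males without Uprt, at 37.5 to 104 CPM, as at 4.18% of intervals. The male means were 218 ± 89.8 CPM with Uprt (SD, n = 4) and 79.0 ± 36.2 CPM without (SD, n = 3). With both sexes in the fit, the log2 fold change of Uprt over none was 1.02 ± 0.41 (SE, unadjusted p = 0.0199, adjusted p = 0.581 by edgeR). That test called 0 intervals in Lmna +/+, with 2239 at an unadjusted p under 0.05. No Lmna +/+ female lacked Uprt, so the sex term came from other groups. The sex difference there was uneven, at 2.31 in Lmna +/+ Uprt and 0.39 in Lmna F/F Uprt. Over the alternatives run, the fold change of Uprt over none ranged from 0.69 to 1.46. With no low-count filter that fold change was called at the same size, 1.02, with a smaller SE of 0.15 (adjusted p = 3.64e-08 by edgeR). In Lmna F/F it was -0.20 ± 0.36 (adjusted p = 0.899 by edgeR, with 0.0351% of intervals called).

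Mdm2, which limits p53, varied least among mice. With Uprt, the Lmna F/F mice had 51.3, 51.8, 51.8, 48.7, 32.5 and 39.3 CPM. The Lmna +/+ mice lay between 35.6 and 47.7 CPM, with a median of 37.9. The groups overlapped, although 4 of the 6 Lmna F/F mice were above all Lmna +/+ mice. The means were 45.9 ± 8.13 CPM in Lmna F/F (SD, n = 6) and 39.6 ± 4.77 CPM in Lmna +/+ (SD, n = 8), or 0.19 ± 0.11 on the log2 scale (SE, adjusted p = 0.474 by edgeR). The approximate 95% interval of that log2 fold change reached 0.41.

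Without Uprt, Mdm2 had 47.8, 49.9, 40.8 and 44.7 CPM in the Lmna F/F mice and 43.9, 38.9 and 32.5 CPM in the Lmna +/+ mice. The log2 fold change was again 0.19, with a larger SE of 0.16 (adjusted p = 0.641 by edgeR). Neither the sexes in Lmna +/+ Uprt (-0.19 ± 0.14 for males over females, adjusted p = 0.744 by edgeR) nor Uprt over none (-0.03 ± 0.10, adjusted p = 0.960 by edgeR, with 0.115% of intervals called) gave a call.

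T>C reads, which mark RNA made after the 4-thiouracil injection together with a background of other conversions, were tested in the mice with Uprt alone and in those without it alone. Gdf15 had 38, 81, 58, 46, 24 and 50 T>C reads in the Lmna F/F Uprt mice. In the Lmna +/+ Uprt mice it had 0, 7, 12, 2, 0, 2, 4 and 2. Scaled by the same library sizes as the CPM, the means were 1.18 ± 0.387 T>C CPM in Lmna F/F (SD, n = 6) and 0.108 ± 0.113 T>C CPM in Lmna +/+ (SD, n = 8), without overlap, as at 0.375% of intervals in this direction. The filter's minimum was reached in 6 of the 6 Lmna F/F mice and in 0 of the 8 Lmna +/+ mice. The interval thus entered the fit through the Lmna F/F mice alone and had to differ, so these values are a description, and no p is given.

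Without Uprt, Gdf15 had 84, 41, 12 and 39 T>C reads in the Lmna F/F mice, against 8, 4 and 9 in the Lmna +/+ mice. The means were 1.04 ± 0.711 T>C CPM in Lmna F/F (SD, n = 4) and 0.170 ± 0.0616 T>C CPM in Lmna +/+ (SD, n = 3). In T>C CPM the groups did not overlap, as at 4.86% of intervals. Here too the minimum was reached only in Lmna F/F, in 4 of 4 mice against 0 of 3, and the values are given without a p. In T>C CPM of Gdf15, Lmna F/F mice with Uprt (mean 1.18) and without it (mean 1.04) overlapped.

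Cdkn1a and Mdm2 were not called in T>C reads, in fits that called 0.49% of 10405 intervals with Uprt and 0.0506% of 7908 without. Cdkn1a had 686, 331, 928, 229, 548 and 443 T>C reads in the Lmna F/F Uprt mice, and 105 to 942 (median 236) in the Lmna +/+ Uprt mice. The log2 fold change was 0.81 ± 0.37 with Uprt (SE, adjusted p = 0.713 by edgeR) and -0.12 ± 0.56 without (SE, adjusted p = 0.978 by edgeR).

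The split by sex seen in all reads of Cdkn1a was also present in its T>C reads. The Lmna +/+ Uprt males had 15.6, 22.9, 7.83 and 28.1 T>C CPM, and the females had 3.34, 4.56, 5.86 and 3.4 T>C CPM. Again no female reached the lowest male, as at 1.37% of intervals in this direction. Of the Lmna F/F Uprt mice, the males had 20.2 and 15.6 T>C CPM and the females 7.45, 22.04, 4.95 and 9.7 T>C CPM.

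Mdm2 had 274, 314, 389, 284, 209 and 234 T>C reads in the Lmna F/F Uprt mice, and 69 to 308 (median 178) in the Lmna +/+ Uprt mice. The log2 fold change was 0.33 ± 0.18 with Uprt (SE, adjusted p = 0.770 by edgeR) and 0.04 ± 0.40 without (SE, adjusted p = 0.994 by edgeR).

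**Figure D3:**
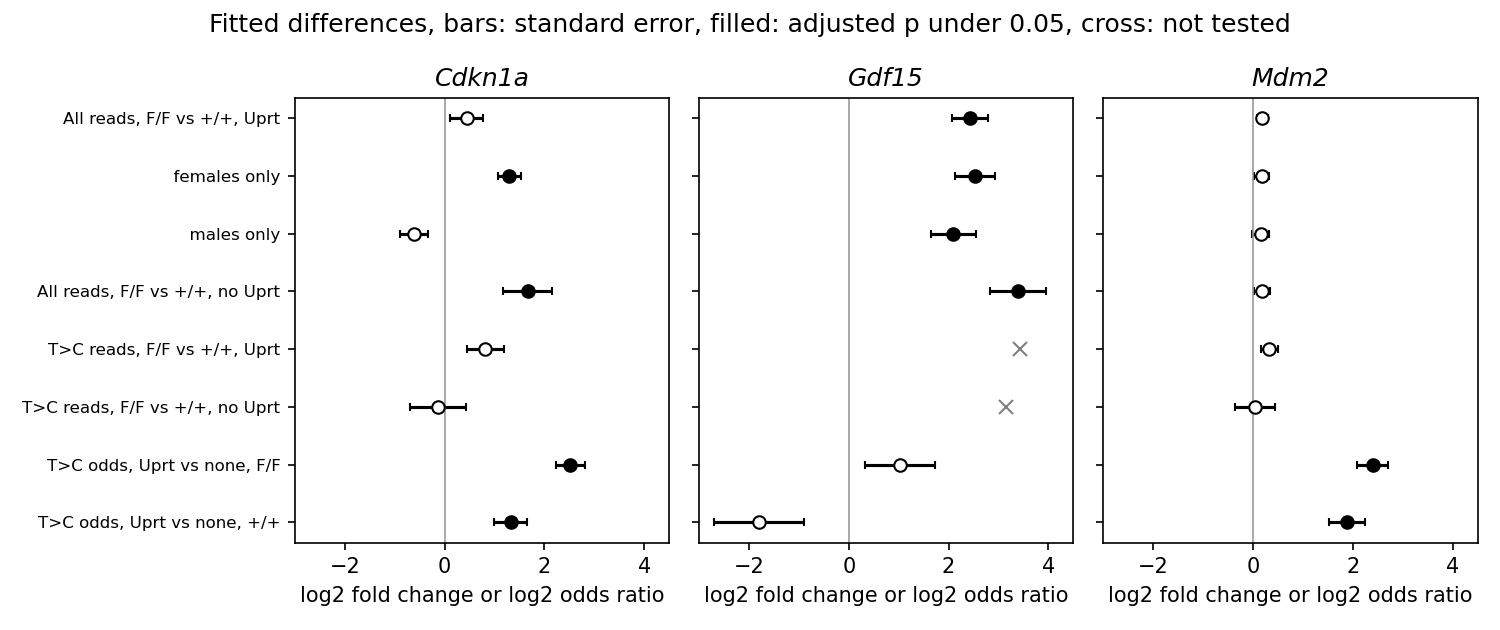
Fitted differences for each gene, with bars for the standard error and filled points for an adjusted p under 0.05. Rows compare Lmna F/F with +/+ in all reads and T>C reads on the log2 scale, and Uprt with none as a log2 odds ratio. Gdf15 is filled in the all-read rows, and its T>C reads have crosses with no test, since only Lmna F/F mice reached the filter's minimum. Mdm2 is filled only where Uprt is compared with none.

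The T>C share asks how much of a gene's RNA carried a conversion, apart from its level. It was tested in edgeR on converted and unconverted reads of each library, and the sizes below are log2 odds ratios. For Mdm2 the share was 15.7%, 13.7%, 17.8%, 12.6%, 18.3% and 13.0% in Lmna F/F Uprt and 7.81% to 18.97% (median 14.01%) in Lmna +/+ Uprt. Without Uprt it was 2.48%, 3.75%, 2.62% and 4.32% in Lmna F/F and 2.11%, 4.6% and 6.12% in Lmna +/+. Mice with Uprt thus lay above mice without it in both genotypes, a separation present at 30.4% of intervals in Lmna F/F and 25% in Lmna +/+.

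For Mdm2 the log2 odds ratio of Uprt over none, averaged over the genotypes, was 2.14 ± 0.24 (SE, adjusted p = 2.65e-07 by edgeR). Most intervals shared this direction: of the 13574 tested, 55.8% were called and 55.7% were higher with Uprt. The median log2 odds ratio was 1.18. Mdm2 was called in Lmna F/F (2.400 ± 0.316, adjusted p = 5.47e-06 by edgeR, where 42% were called) and in Lmna +/+ (1.89 ± 0.35, adjusted p = 0.000439 by edgeR, where 33.5% were called).

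For Cdkn1a the share was 13.3%, 6.94%, 14.8%, 5.85%, 11.4% and 10.2% in Lmna F/F Uprt and 6.36% to 11.6% (median 9.04%) in Lmna +/+ Uprt. Without Uprt it was 1.06%, 1.84%, 2.57% and 2.39% in Lmna F/F and 2.55%, 3.81% and 4.87% in Lmna +/+. As for Mdm2, groups with and without Uprt did not overlap in either genotype, as at 30.4% of intervals in Lmna F/F and 25% in Lmna +/+.

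For Cdkn1a the log2 odds ratio of Uprt over none was 1.92 ± 0.23 (SE, adjusted p = 4.46e-07 by edgeR). Of all intervals 55.8% were called there, with a median of 1.18. In Lmna F/F it was 2.52 ± 0.30 (adjusted p = 1.92e-06 by edgeR), where 42% were called and the median was 1.17. In Lmna +/+ it was 1.32 ± 0.33 (adjusted p = 0.00388 by edgeR), near the median of 1.15, where 33.5% were called. The difference between these, tested itself, was 1.20 ± 0.43 (SE, unadjusted p = 0.0109, adjusted p = 0.878 by edgeR), in a test that called 0 of 13574 intervals, with 749 at an unadjusted p under 0.05. Between Lmna genotypes the share was not called with Uprt (0.18 ± 0.24, adjusted p = 1.000 by edgeR, where 0.00737% were called) or without (-1.02 ± 0.37, unadjusted p = 0.0109, adjusted p = 0.660 by edgeR, with the same percentage called). Without Uprt the Cdkn1a share of summed reads was 1.98% in Lmna F/F (95% Wilson interval 1.82% to 2.16%) and 4.15% in Lmna +/+ (3.78% to 4.56%). These intervals cover counting error only.

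Gdf15 had the highest T>C share of the genes described in Lmna F/F with Uprt and in both groups without Uprt. With Uprt it was 27.0%, 28.7%, 38.4%, 25.4%, 34.3% and 37.6% in Lmna F/F and 0% to 27.9% (median 14.4%) in Lmna +/+. The share was 0% in 2 Lmna +/+ mice, at 15 and 21 reads, where 3 counts would be 20% and 14.3%. A count of 0 at this depth does not exclude shares up to about these. Without Uprt it was 18.1%, 14.3%, 18.2% and 23.9% in Lmna F/F. In Lmna +/+ without Uprt it was 28.6%, 16.0% and 64.3%, at 28, 25 and 14 reads. All these values without Uprt were above the highest share of Cdkn1a or Mdm2 without Uprt, 6.12%. In Lmna F/F the share with Uprt was above that without in every mouse, a separation shared by 30.4% of intervals.

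For Gdf15 the log2 odds ratio of Uprt over none in Lmna F/F was 1.03 ± 0.71 (SE, adjusted p = 0.252 by edgeR), and a quasi-binomial model gave an adjusted p of 0.0104. In Lmna +/+ it was -1.80 ± 0.91 (SE, adjusted p = 0.127 by edgeR), with at most 43 reads in a library. Over both genotypes it was -0.39 ± 0.56 (adjusted p = 0.585 by edgeR). The Lmna effect on the Gdf15 share was 1.64 ± 0.64 with Uprt and -1.19 ± 0.96 without (SE). The difference of these was 2.83 ± 1.12 (SE), and none of these values was called in edgeR. As with T>C reads, the interval entered the share fits through the Lmna F/F mice alone. These Lmna differences are therefore a description without a p.

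**Figure D4:**
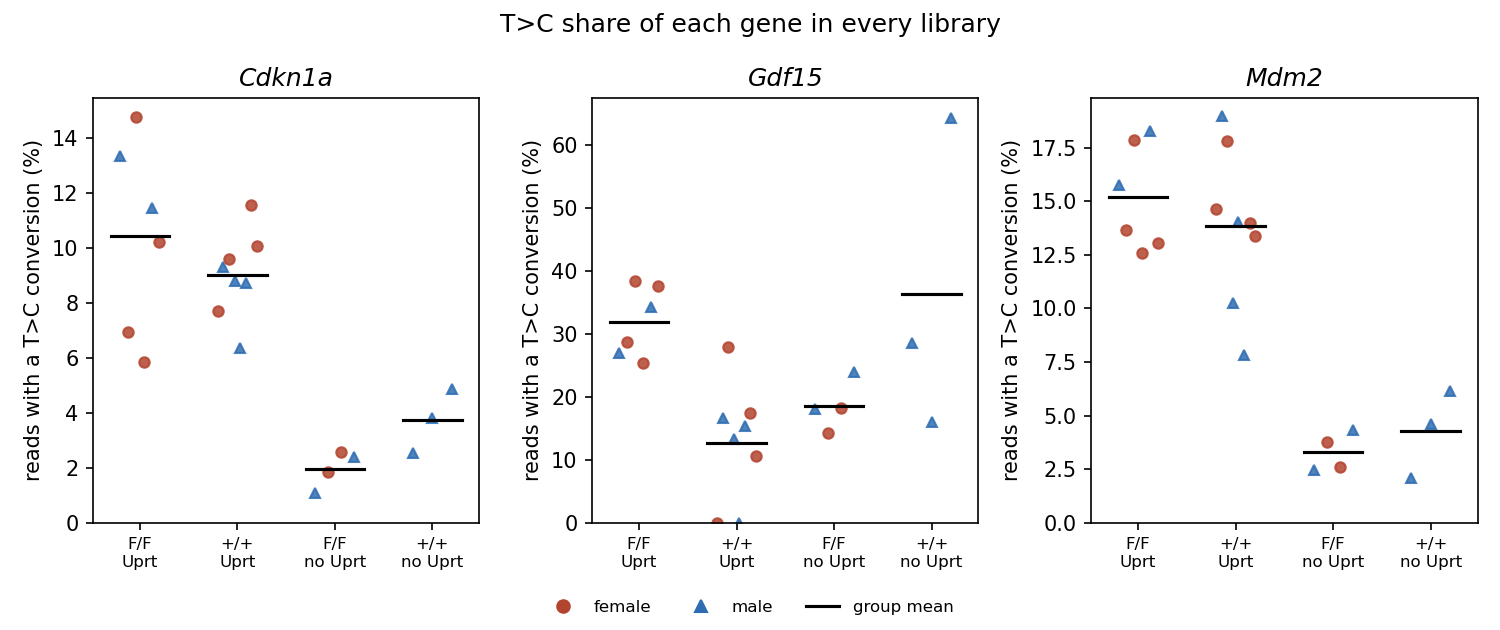
T>C share of each gene in every library, in percent of its reads, on axes that start at 0 and differ between panels, with circles for females, triangles for males and a line at the group mean. Cdkn1a and Mdm2 are higher with Uprt in both genotypes, while Gdf15 without Uprt lies at 14.3% to 64.3%.

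The share was also placed among all intervals with at least 200 reads in a group, as a description. Summed over the Lmna F/F Uprt mice, the share was 31.0% for Gdf15, 14.9% for Mdm2 and 10.8% for Cdkn1a, where the median interval had 6.07%. Gdf15 was above 98.5% of the 18538 intervals, Mdm2 above 89.4% and Cdkn1a above 77.4%. In Lmna F/F without Uprt, the share was 17.96% for Gdf15, 3.33% for Mdm2 and 1.98% for Cdkn1a, with a median of 2.59%.

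Gdf15 stayed above 97.0% of 16484 intervals in the Lmna F/F mice without Uprt, Mdm2 above 61.7% and Cdkn1a above 38.4%. Conversions per T position gave Gdf15 a like place, above 97.5% of intervals with Uprt and 95.6% without. That rate is taken per T position and not per read. In every library without Uprt, Gdf15 had as many conversions as T>C reads, such as 84 of each in Lmna F/F replicate 1. Conversions outnumbered T>C reads in every Lmna F/F library with Uprt, such as 44 against 38 in replicate 1. Where along the interval the conversions lie was not tested. In Lmna +/+ the summed Gdf15 reads, 191 with Uprt and 67 without, were below that minimum. There the share was 15.2% with Uprt (95% Wilson interval 10.8% to 20.96%) and 31.3% without (21.5% to 43.2%). Both intervals cover counting error only and not the spread between mice. Single mice ran from 0% to 27.9% with Uprt and from 16.0% to 64.3% without. The fit over mice did not call this difference (adjusted p = 0.127 by edgeR).

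Cdkn1a shows how the measure depends on where a read falls. Another annotated interval of the gene ends 184 bases into the one used, so reads on that first stretch could be set apart from those on the remaining 1150 bases. The first stretch took 40.7% to 57.9% of Cdkn1a reads in single libraries. Its T>C share was the higher in 19 of 21 libraries, but conversions per T position were higher there in only 11 of 21. Any read across the boundary was counted for the first stretch, but little was read just past it. An annotated interval of 308 bases with the same start held 47962 reads and 1356140 read T positions. The first stretch alone held 47936 and 1355876. A read there covered 26.4 to 30.4 T positions, and a read on the rest 18.6 to 19.2.

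In Lmna F/F Uprt the T>C share of Cdkn1a was 12.9% ± 4.3 on the first stretch and 8.08% ± 3.13 on the rest (SD, n = 6). In Lmna +/+ Uprt it was 10.5% ± 2.57 and 7.54% ± 1.35 (SD, n = 8). Per T position the first stretch had 0.520% ± 0.188 and the rest 0.472% ± 0.198 in Lmna F/F Uprt, against 0.398% ± 0.106 and 0.423% ± 0.0636 in Lmna +/+ Uprt. The part of reads on the first stretch was 49.6% ± 3.34 in Lmna F/F Uprt (SD, n = 6) and 49.4% ± 4.53 in Lmna +/+ Uprt (SD, n = 8).

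**Figure D5:**
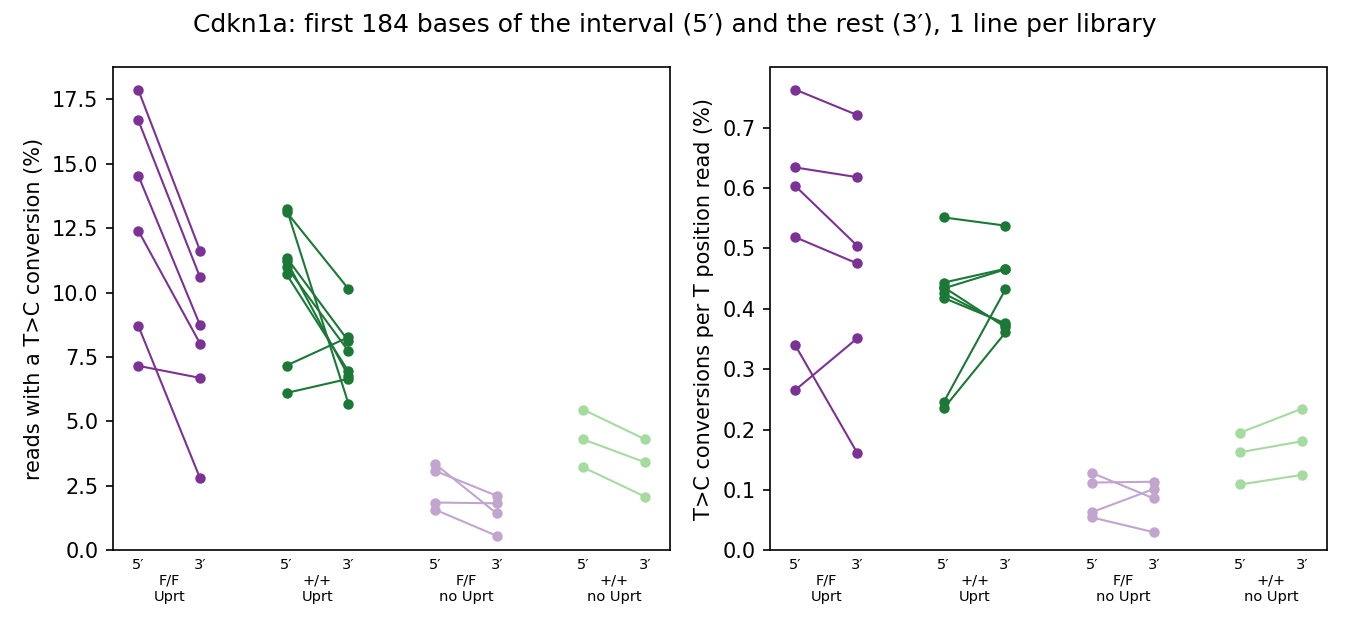
Cdkn1a reads on the first 184 bases of the interval and on the rest, with a line per library, as T>C share on the left and as T>C conversions per T position on the right. The share falls along most lines, in 19 of 21 libraries, while the conversions per T position fall in 11 of 21.

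Levels were set against each other across mice within each group of at least 6, on the log2(CPM + 0.5) scale. In Lmna F/F Uprt, Gdf15 and Mdm2 had a Pearson r of 0.863 over 6 mice (exact permutation p = 0.0278, adjusted p = 0.111 over 4 relations) and a Spearman rho of 0.657 (exact permutation p = 0.175). Without the 2 mice farthest from the Gdf15 median r was 0.878. The other 3 relations had an adjusted p of at least 0.9. Those of Cdkn1a in Lmna +/+ Uprt were not computed, since these mice fall into 2 clusters by sex.

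By likeness of level over the 21 libraries, among 9478 intervals with a mean of at least 5 CPM, Cdkn1a was closest to chr4:11169710-11174379 (Pearson r = 0.953), chr8:124388056-124390623 (0.910) and chr16:15705996-15708895 (0.901). The first of these had 14.9 to 29.1 CPM in Lmna F/F Uprt and 6.73 to 66.6 CPM in Lmna +/+ Uprt, so it shared the wide range among Lmna +/+ mice. Gdf15 was closest to chr15:78443367-78445685 (r = 0.964), chr17:35075350-35075544 (0.963) and chrX:162709956-162712542 (0.956).

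The interval most like Gdf15 had 5.65 to 11.9 CPM in Lmna F/F Uprt and 2.41 to 4.54 CPM in Lmna +/+ Uprt. Mdm2 had weaker likenesses, with chr12:17328515-17328941 (r = 0.857), chr3:124179316-124179646 (0.807) and chr18:64645055-64645120 (0.807). The files give these intervals no gene name, the points share libraries and depth, and the r values describe these mice without a test.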

How the data were processed

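RNA of 21 mouse hearts was measured by SLAM-IT-seq with QuantSeq 3′ libraries, read as single ends of 100 bases, per the labels' protocols. The deposited table has 208307 3′ UTR intervals in the column layout of SlamDunk, per the file headers, on mm39, per the submitters' processing notes. Per the file headers, these analyses rest on deposited counts of reads, T>C reads, multimapped reads, read T positions and the T>C conversions on them. Interval length and T content come from other deposited columns. Aligner settings were not given in the sources used here. A T>C read needs only 1 conversion in these counts: intervals with 1 conversion in a library had 1 T>C read in 31870 of 34254 cases, and none with conversions had 0 T>C reads. Columns of samples outside the labels numbered 0.

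Overlapping intervals of a strand were reduced to the one with the most reads, which left 121259. The genes and lists were chosen with earlier results of these data known. Lists of other p53 targets, stress genes and cell type markers were not run, since no table used here pairs the transcript IDs with names. The named intervals are those of the 3 windows and the 3 most like each gene.

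All reads were fitted in edgeR 4.0.16 in R 4.3.3 (filterByExpr with a minimum count of 10, TMM, glmQLFit, glmQLFTest) with 4 group means and sex. Comparisons by sex used only the 14 mice with Uprt, in groups of genotype and sex. Those by sex, and those of the T>C share within a genotype, were added after the values were seen. T>C reads were fitted with and without Uprt apart. The share was fitted on converted and unconverted reads with an effect per library. Adjusted p-values (Benjamini-Hochberg) cover all intervals tested, with a threshold of 0.05. The standard error is the log2 fold change over the root of the F statistic. The Lmna comparison with Uprt was tested on simulated counts for all reads, T>C reads and the share. Changes were planted only in intervals above a minimum mean count. For all reads and T>C reads, depths as low as those of Gdf15 in Lmna +/+ mice were thus not covered. Other comparisons and the alternative models were not simulated. DESeq2 1.42.0 and a quasi-binomial model with variances squeezed in limma 3.58.1 were alternatives. Mice are 1 library each, so p-values measure the spread between mice. In edgeR that spread is estimated with information shared across the intervals in the fit. Replicates are numbered in accession order. Promoters are those of RefSeq, and exact permutations used scipy 1.17.1.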

Additional observations from a re-analysis of the deposited data

How the results depend on the processing

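The Gdf15 rise in Lmna F/F kept its sign under every alternative run for all reads. With Uprt the log2 fold change of all reads was 2.23 to 2.61 with 1 mouse left out and called each time; males alone gave 2.09 without a call. Without Uprt it was 2.69 to 3.66 with 1 mouse left out, called each time, and not called in the 7 libraries alone (3.68) or without both Lmna F/F no Uprt replicates 1 and 2 (2.15). In T>C reads, where Gdf15 entered the fits through Lmna F/F alone, the values were 3.24 in males with Uprt and, without Uprt, 3.19 in DESeq2 and 3.14 with no low-count filter. The Cdkn1a rise without Uprt was lost in DESeq2 (1.67), without the sex term (0.94), in males alone (0.98), in the 7 libraries alone (0.97) and without replicates 1 and 2 together (1.54), and ranged from 1.25 to 2.03 with 1 mouse left out. For Cdkn1a with Uprt the value was -0.12 without the sex term and -0.61 in males alone for all reads, and -0.22 in males alone for T>C reads.

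Without the low-count filter Cdkn1a was called in all reads with Uprt (0.45) and in T>C reads with Uprt (0.82). It was also called for Uprt over none (0.42, and 1.02 in Lmna +/+) and for the Lmna effect with Uprt minus without (-1.20). So were females minus males (1.92) and, as lower in Lmna F/F, males with Uprt (-0.61). These sizes were close to the main ones. The SE was smaller each time, such as 0.12 against 0.33 in all reads with Uprt, and the cause was not tested. Values that changed sign without a call were, without replicates 1 and 2 together, Gdf15 for the Lmna effect with Uprt minus without (0.24), for Uprt over none (0.45) and for the same in Lmna F/F (0.57), Cdkn1a in Lmna F/F (0.14), and Mdm2 for Uprt over none (0.0026) and in Lmna F/F (0.046). For Mdm2 the Lmna effect with Uprt minus without was -0.0079 in DESeq2, -0.0077 with its size factors, -0.041 without sex and -0.11 in males. Without sex, Uprt over none was 0.023, 0.0025 in Lmna F/F and 0.043 in Lmna +/+, and T>C reads without Uprt gave -0.0077, or -0.010 scaled by all reads. The r of Cdkn1a with Mdm2 in Lmna F/F Uprt became -0.0490, and that of Gdf15 with Mdm2 in Lmna +/+ Uprt -0.396, without the 2 mice farthest from the median.

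With 1 mouse left out at a time, values that changed sign or call ran as follows. For Cdkn1a, the Lmna effect in T>C reads without Uprt ran between -0.91 and 0.38, Uprt over none in Lmna F/F between -0.43 and 0.38, and the Lmna effect in females minus males between 1.66 and 2.11. For Gdf15, Uprt over none ran between -0.36 and 0.056 in all reads and between -0.72 and 0.019 in the share, the Lmna effect in females minus males between -0.052 and 1.04, that in males between 1.49 and 2.58, and males over females in Lmna +/+ between -0.51 and 0.30. For Mdm2, the Lmna effect with Uprt minus without ran between -0.10 and 0.11, that in T>C reads without Uprt between -0.15 and 0.15, that in the share without Uprt between -0.77 and 0.0050, that in females minus males between -0.26 and 0.37, and that in males between -0.19 and 0.45. Uprt over none for Mdm2 ran between -0.081 and 0.038, in Lmna F/F alone between -0.11 and 0.066, in Lmna +/+ alone between -0.13 and 0.079, and males over females in Lmna F/F between -0.56 and 0.078.

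In all reads with Uprt, 769 intervals called became 508 to 812 with 1 mouse left out, 1247 in DESeq2 and 210 in males alone. Without Uprt, 1621 became 460 to 2356, and 32 in the 7 libraries alone. No paired analysis was possible, since each library is a separate mouse and the labels used here name no pairs. Replicate numbers only follow accession order. Depth limits Gdf15, with 13 to 43 reads in Lmna +/+ mice with Uprt.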
